A study of Mus musculus with 8 samples.

Results

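The nuclear genes of the mitochondrial respiratory chain and ATP synthase were examined in the livers of mice labelled oxaliplatin and of mice labelled control. The genes were those whose array probes carry a symbol starting with Nduf, Uqcr or Atp5, the 4 genes Sdha, Sdhb, Sdhc and Sdhd, and the Cox4 to Cox8 subunit genes of cytochrome c oxidase. A total of 95 genes of the 21252 gene symbols on the array met this definition, with 213 probes. They comprise 45 genes of complex I, 9 of which are assembly factors, 4 genes of complex II, 8 of complex III, 20 of complex IV and 18 of ATP synthase, also called complex V. The symbols Dmac2, printed on the array as Atp5sl, and Dmac2l, printed as Atp5s, were included under the names of the array. The test covered 91 of the 95 genes, whose chosen probe was well above background on all 8 arrays. The other 4, Cox6a2, Cox7b2, Cox8b and Cox8c, stayed too dim to be tested.

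The oxaliplatin group comprised 4 male mice given the platinum drug oxaliplatin by intraperitoneal injection once a week for 6 weeks, to model sinusoidal obstruction syndrome, in which the smallest vessels of the liver are damaged. The control group comprised 4 male mice described as normal. Strain, age and any vehicle injection are not given in the sources used here. Total RNA of whole liver was hybridised on single-colour Agilent arrays, 1 array per mouse.

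Levels are log2 signals relative to the 75th percentile of each array's non-control probes. A level is not a molar amount, and levels of different probes are not compared. Differences are oxaliplatin minus control, from limma fitted to all 13913 genes tested, and a gene is said to have risen or fallen where its Benjamini-Hochberg adjusted p was under 0.05. Between 27.2% and 40.9% of the probes on an array were well above background, no spot was saturated, and the number of arrays limits the precision. The oxaliplatin arrays shared a slide and a scan, and the control arrays another, so that group and slide or scan cannot be told apart. Replicates 1 and 2 of the oxaliplatin group also carry a different run name from the other 6 arrays. In whole liver, fewer cells of a type and less RNA per cell cannot be told apart.

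The labels carry a doubt of their own. Cdkn1a, an inhibitor of the cell cycle that p53 induces after DNA damage, read 3.65, 1.43, 1.08 and 0.54 on the oxaliplatin arrays and 4.66, 5.10, 5.04 and 6.33 on the control arrays. Phlda3, another p53 target, read 1.17, 0.66, 0.79 and 0.72 on the oxaliplatin arrays and 4.20, 4.14, 4.57 and 4.69 on the control arrays. The differences, -3.61 ± 0.66 for Cdkn1a and -3.57 ± 0.17 for Phlda3 (SE, n = 4 per group, adjusted p = 0.0117 and 0.000214), were lower levels on the arrays labelled oxaliplatin, where a DNA-damaging drug would be thought to raise these targets. All directions below follow the labels, and an exchange of the labels was not tested.

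Of the liver cell markers, albumin and 3 other hepatocyte genes of 7 rose on the arrays labelled oxaliplatin, with a summed level of 13.22 to 13.38 there and 13.04 to 13.11 on the control arrays. Of 5 red-cell genes tested 4 rose, with summed levels of 10.60 to 11.36 on the oxaliplatin arrays and 8.44 to 10.49 on the control arrays. Of 5 platelet genes 3 fell, with summed levels of 3.63 to 4.09 on the oxaliplatin arrays and 5.18 to 6.70 on the control arrays. Among 6 markers each of sinusoidal endothelium and Kupffer cells, Lyve1 and Marco fell, and among 5 of T and NK cells Cd3e rose. The median differences of these lists were -0.03, 0.50 and 0.18, so Marco does not stand for the Kupffer list. Summed Kupffer levels overlapped, at 8.47 to 9.78 on the oxaliplatin arrays and 9.01 to 10.04 on the control arrays. Of 3 neutrophil markers tested none was called, with a median difference of -1.41. The part of these cell markers in the results below was not tested.

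The respiratory chain passes electrons from NADH and succinate through complexes I and II, coenzyme Q, complex III, cytochrome c and complex IV to oxygen. Complexes I, III and IV pump protons out of the matrix, and ATP synthase uses the returning protons to make ATP. Most subunits come from nuclear genes, and assembly factors, which are not part of the finished complexes, join them with the subunits made inside the mitochondrion. Liver cells rely on this pathway for gluconeogenesis, urea synthesis and fat oxidation.

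Among the 91 genes tested 2 rose and 5 fell, and the test was not passed by 84. The 7 genes are 7.69%, while 18.6% of all 13913 genes passed. At an unadjusted p under 0.05 there were 22 of the 91, among them 12 of the 76 general subunits and 5 of the 9 complex I assembly factors. That is 24.2% of the 91, and 36.0% of all genes reached it. The share that rose was 2.2% for these genes and 6.99% for all genes. The share that fell was 5.49% for these genes and 11.6% for all genes. The order of the shares that rose depended on the processing. It was 22.0% for these genes and 10.3% for all genes when each array was scaled on its detected probes alone, and 12.1% and 7.46% with the second brightest probe of each gene. The genes that rose were Atp5b and Cox6c, both subunits. The genes that fell were the complex I assembly factors Ndufaf3, Ndufaf4 and Ndufaf7, the ATP synthase factor Dmac2l and the supercomplex factor Cox7a2l. The groups did not overlap for 16 of the 91 genes, 17.6%, while the share over all genes was 27.7%. In 10 of the 16, or 11% of the 91, the oxaliplatin arrays were the higher, where 9.26% of all genes were. In the other 6, or 6.59%, they were the lower, where 18.4% of all genes were.

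The median difference of the 91 genes was 0.16, and that of all genes was -0.09. A positive difference was found for 71 of the 91 genes, or 78.0%, and for 40.6% of all genes. The share is a description, since the 91 genes vary together across arrays. It also rests on the chosen probes: of 84 genes with 2 or more kept probes, 18 had probes of opposite sign. The genes are also among the brightest on the array. When all genes were ranked by brightness and cut into 20 bins, the top bin held 55 of the 91. All genes of that bin had a median difference of 0.04, and these 55 had 0.23.

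**Figure D1:**
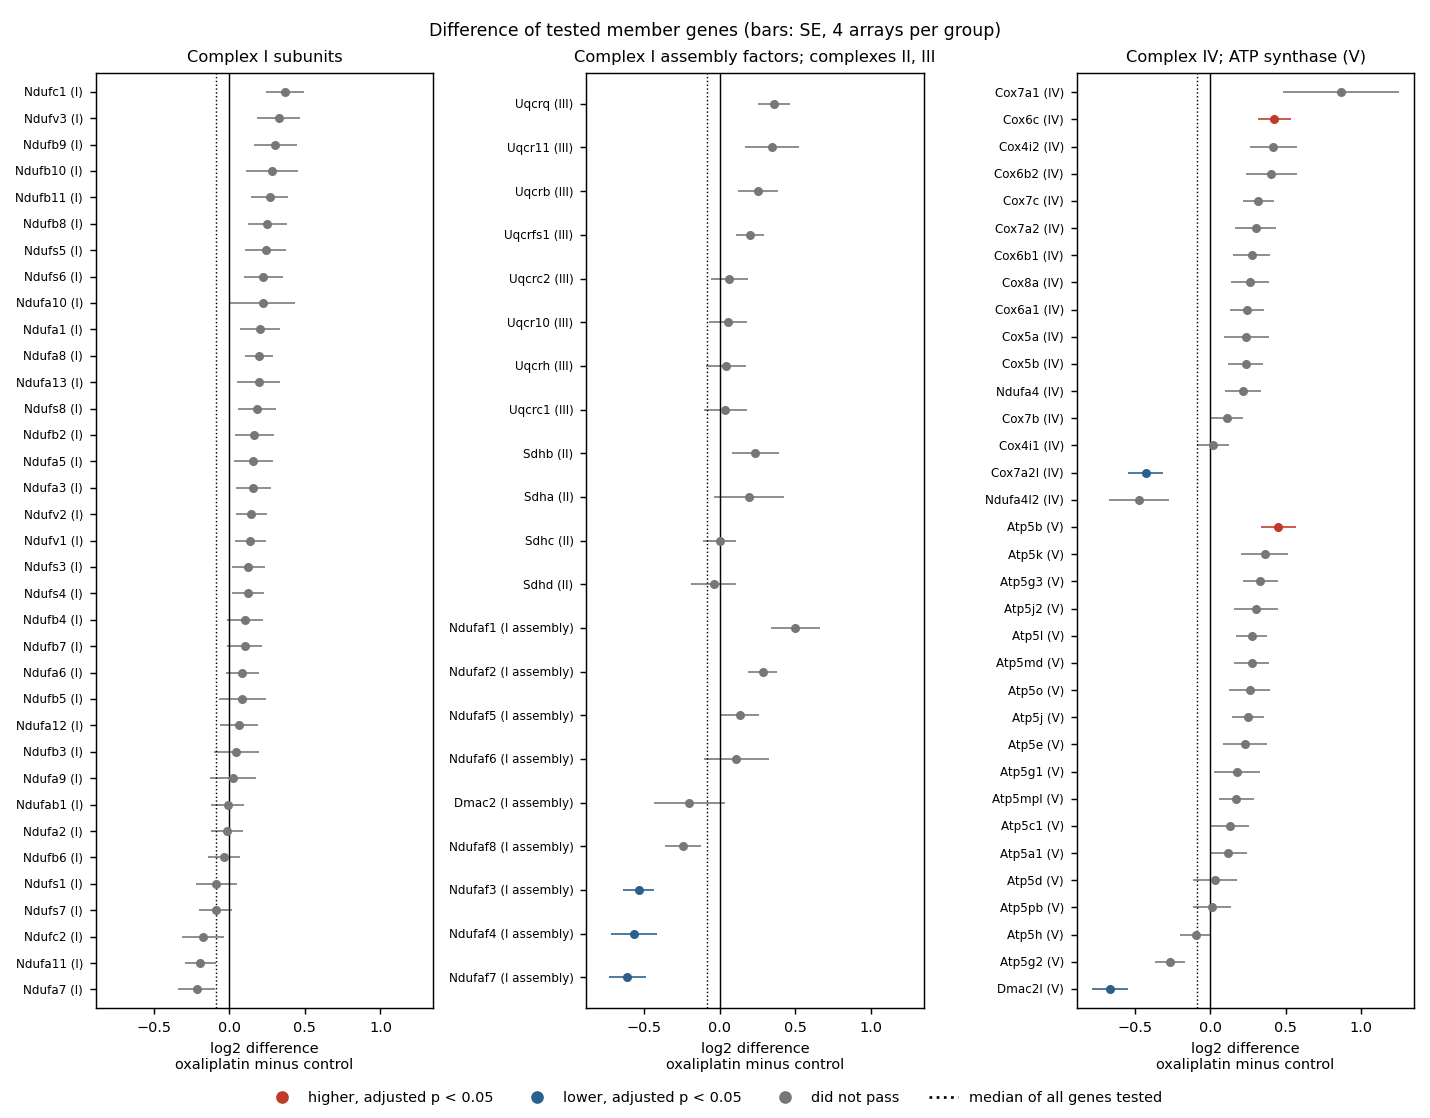
Difference in log2 level (oxaliplatin minus control) of tested genes, by complex, with bars of 1 SE over 4 arrays per group. Red points rose and blue points fell at an adjusted p under 0.05, grey points did not pass, and the dotted line is the median of all genes tested at -0.09. Most subunits lie between 0 and 0.5, while 3 of the 9 complex I assembly factors, Dmac2l and Cox7a2l fell.

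Complex I takes electrons from NADH. Its core subunits encoded in the nucleus include those that carry the flavin and the iron-sulfur clusters and those at the quinone site. Ndufv1, which binds NADH and the flavin, read 7.60, 7.74, 7.84 and 7.86 on the oxaliplatin arrays and 7.63, 7.74, 7.64 and 7.47 on the control arrays. Ndufv2, its partner in the NADH module, read 5.70, 5.81, 5.87 and 5.87 on the oxaliplatin arrays and 5.65, 5.70, 5.84 and 5.49 on the control arrays. Ndufs1, the largest subunit of that module, read 7.36, 7.51, 7.69 and 7.71 on the oxaliplatin arrays and 7.55, 7.91, 7.72 and 7.44 on the control arrays. In these 3 genes the groups overlapped, and the differences were 0.14 (adjusted p = 0.36) for Ndufv1, 0.14 (adjusted p = 0.345) for Ndufv2 and -0.09 (adjusted p = 0.677) for Ndufs1, with SE of 0.10, 0.10 and 0.13.

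The quinone module hands electrons on to coenzyme Q. Ndufs3 read 8.29, 8.47, 8.50 and 8.55 on the oxaliplatin arrays and 8.22, 8.45, 8.46 and 8.18 on the control arrays. Ndufs7, which carries the last iron-sulfur cluster before coenzyme Q, read 7.98, 8.05, 8.26 and 8.19 on the oxaliplatin arrays and 8.16, 8.32, 8.33 and 8.03 on the control arrays. The groups overlapped in both. Ndufs8 read 5.41, 5.34, 5.45 and 5.71 on the oxaliplatin arrays and 5.19, 5.43, 5.46 and 5.10 on the control arrays. With overlap here too, the difference was 0.13 (adjusted p = 0.44) for Ndufs3, -0.09 (adjusted p = 0.585) for Ndufs7 and 0.18 (adjusted p = 0.326) for Ndufs8. None of these core genes passed. The 95% intervals were -0.40 to 0.22 for Ndufs1 and -0.12 to 0.37 for Ndufs3, and they cover the chosen probe under the main processing only. The other Ndufs3 probe differed by 0.40, outside that interval, and was called higher when used alone.

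The 29 accessory subunits of complex I, which surround the core, had differences between -0.22 and 0.37, with a median of 0.16. None passed the test, and 23 of them were positive. The upper end was Ndufc1, at 0.37 (adjusted p = 0.0764), and the lower end Ndufa7, at -0.22 (adjusted p = 0.243). The genes are Ndufa1 to Ndufa3, Ndufa5 to Ndufa13, Ndufab1, Ndufb2 to Ndufb11, Ndufc1, Ndufc2, Ndufs4 to Ndufs6 and Ndufv3. Ndufab1, the mitochondrial acyl carrier protein, differed by -0.01 (adjusted p = 0.949), and Ndufs4, a subunit needed for a stable NADH module, by 0.12 (adjusted p = 0.43). In 2 of the 29 the groups did not overlap, Ndufc1 and Ndufa8, both with the oxaliplatin arrays above, as in 9.26% of all genes. Ndufa8 differed by 0.20 on its chosen probe and by -0.09 and 0.05 on its other probes. Control replicate 1 of Ndufa10 read 6.66 against 7.39 to 7.72 on the other control arrays, which gave this gene the widest error of the 29, an SE of 0.21. Ndufa4, named for complex I and now counted with complex IV, is described there.

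The assembly factors of complex I build the complex and then leave it. Of the 9 genes, 3 fell, none rose and 6 did not pass, with a median difference of -0.20. Over all genes 6.99% rose and 11.6% fell, and 15.1% fell in the brightness bin at the median of these 9. Ndufaf3, which acts with Ndufaf4 in building the quinone module, read 5.82, 5.70, 5.65 and 5.65 on the oxaliplatin arrays and 6.05, 6.24, 6.39 and 6.28 on the control arrays. Every oxaliplatin array lay below every control array, and the signal fell by 0.54 ± 0.10 on the oxaliplatin arrays, a level 1.45-fold higher on the control arrays (SE, n = 4 per group, adjusted p = 0.0134). Its other probe that was kept, which reads coding sequence across a splice junction, differed by -0.41.

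Ndufaf4 read 4.53, 4.47, 4.83 and 4.55 on the oxaliplatin arrays and 4.86, 5.14, 5.14 and 5.51 on the control arrays. Oxaliplatin replicate 3, at 4.83, lay just below the lowest control array, at 4.86. The signal fell by 0.57 on the oxaliplatin arrays, with an SE of 0.15 (n = 4 per group, adjusted p = 0.0358). Ndufaf7, a methyltransferase needed for the assembly of complex I, read 4.32, 4.43, 4.31 and 4.52 on the oxaliplatin arrays and 4.73, 4.96, 5.08 and 5.25 on the control arrays. Again the groups did not overlap, and Ndufaf7 fell by 0.61 ± 0.13, 1.53-fold higher on the control arrays (SE, n = 4 per group, adjusted p = 0.0166). The second probe gave -0.41 for Ndufaf4 and -0.51 for Ndufaf7. Taken as the only probe of its gene, the second probe kept the call for Ndufaf7 and lost it for Ndufaf3 and Ndufaf4. The probes that lie in coding sequence, printed because they show which stretch of each transcript was read, are given 5′ to 3′. The capitals in the Ndufaf4 probe mark its start codon, and positions are on build mm9. That they lie in coding sequence was judged from their open reading frames and genomic spans, not from an annotation.
Ndufaf3 probe, chr9:108468692-108468899, minus strand, spliced: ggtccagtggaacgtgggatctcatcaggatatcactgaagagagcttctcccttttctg
Ndufaf4 probe, chr4:24825307-24825366, plus strand: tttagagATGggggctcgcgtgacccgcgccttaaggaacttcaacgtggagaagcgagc
Ndufaf7 probe, chr17:79337906-79338938, plus strand, spliced: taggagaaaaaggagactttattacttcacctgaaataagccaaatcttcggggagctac

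The other 6 assembly factors pointed both ways. Ndufaf1, which acts in assembly of the membrane arm, and Ndufaf2, which acts in a late step with the NADH module, differed by 0.50 (adjusted p = 0.0671) and 0.28 (adjusted p = 0.0703), and in both the groups did not overlap, with the oxaliplatin arrays above. The second probe gave 0.05 for Ndufaf1 and -0.01 for Ndufaf2. Ndufaf5, a hydroxylase of Ndufs7, differed by 0.13 (adjusted p = 0.503) and Ndufaf6 by 0.11 (adjusted p = 0.75). Ndufaf8, a partner of Ndufaf5, differed by -0.24 (adjusted p = 0.18) and Dmac2, of the distal membrane arm, by -0.20 (adjusted p = 0.57).

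**Figure D2:**
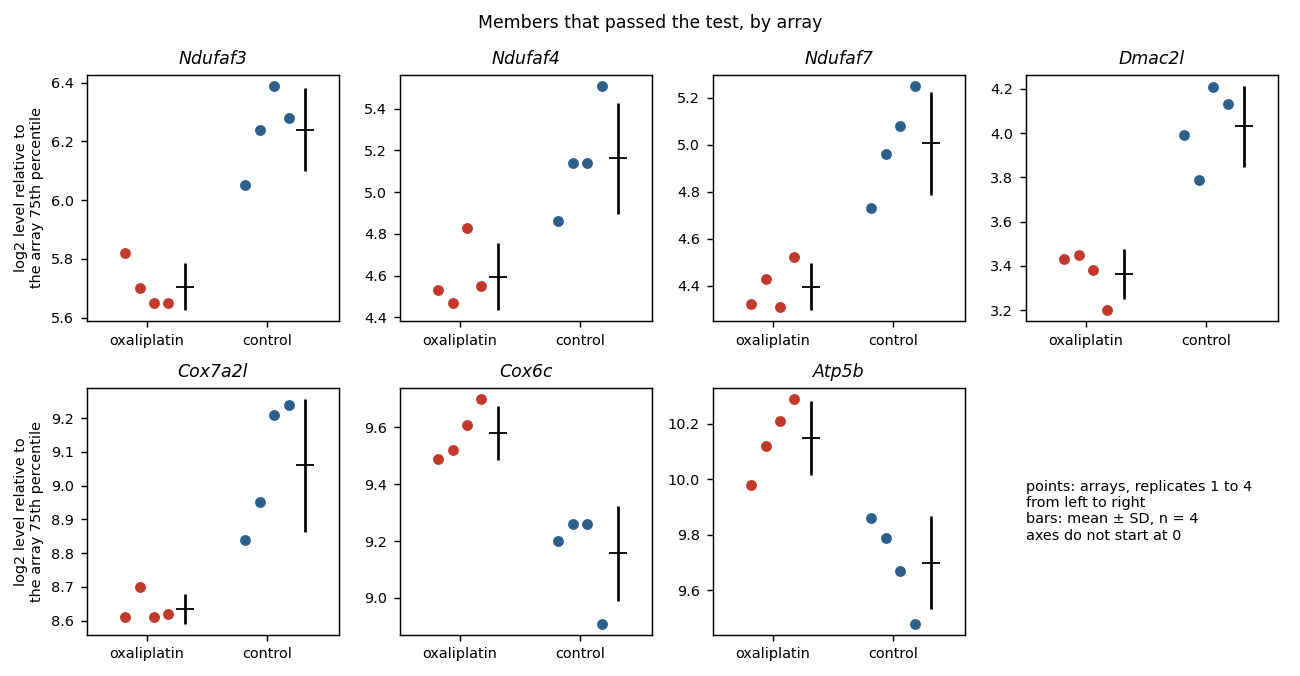
Level (log2 relative to the array's 75th percentile) of the 7 genes that passed the test, with oxaliplatin arrays (red) left of control arrays (blue) and black bars for the mean ± SD, n = 4 each. The groups do not overlap in any of the 7; the axes do not start at 0.

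Complex II, succinate dehydrogenase, also belongs to the citric acid cycle and is encoded wholly in the nucleus. Sdha, the flavoprotein, read 6.25, 6.56, 6.71 and 6.54 on the oxaliplatin arrays and 6.38, 6.84, 6.40 and 5.68 on the control arrays. Control replicate 4, at 5.68, lay below all other arrays. Sdhb, which carries the iron-sulfur clusters, read 9.17, 9.48, 9.61 and 9.68 on the oxaliplatin arrays and 9.24, 9.41, 9.41 and 8.94 on the control arrays. The membrane anchors were Sdhc, which read 8.06, 8.36, 8.35 and 8.37 on the oxaliplatin arrays and 8.24, 8.34, 8.39 and 8.17 on the control arrays, and Sdhd, which read 8.13, 8.36, 8.48 and 8.43 on the oxaliplatin arrays and 8.32, 8.62, 8.56 and 8.05 on the control arrays. None of the 4 passed, with differences of 0.19 (adjusted p = 0.592) for Sdha, 0.23 (adjusted p = 0.301) for Sdhb, -0.00 (adjusted p = 0.988) for Sdhc and -0.04 (adjusted p = 0.87) for Sdhd. The interval of Sdhc, -0.25 to 0.24, was the narrowest of the 4, and that of Sdha, -0.34 to 0.72, the widest. A second probe gave -0.10 for Sdhb and 0.32 for Sdhd, in each the opposite sign to the first.

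Complex III hands electrons from coenzyme Q to cytochrome c. On their chosen probes all 8 genes had positive differences, between 0.03 and 0.36, and none passed. Uqcrfs1, the Rieske iron-sulfur protein, read 7.98, 8.09, 8.22 and 8.18 on the oxaliplatin arrays and 7.89, 8.02, 7.93 and 7.84 on the control arrays. Its probe differed by 0.20 (adjusted p = 0.168), but a second, dimmer probe differed by -0.34. The structural subunits Uqcrc1 and Uqcrc2 read 7.48, 7.65, 7.82 and 7.90 on the oxaliplatin arrays and 7.48, 7.93, 7.80 and 7.52 on the control arrays for Uqcrc1, and 7.93, 8.07, 8.26 and 8.23 on the oxaliplatin arrays and 8, 8.29, 8.08 and 7.87 on the control arrays for Uqcrc2. They differed by 0.03 (adjusted p = 0.89) and 0.06 (adjusted p = 0.753). Other probes gave 0.25 and 0.28 for Uqcrc1 and -0.10 for Uqcrc2. Uqcrq, a small subunit, had no overlap between groups and differed by 0.36 ± 0.11 (SE, n = 4 per group, adjusted p = 0.0528). The other small subunits were Uqcr11, at 0.34 (adjusted p = 0.204), Uqcrb, at 0.25 (adjusted p = 0.202), Uqcr10, at 0.06 (adjusted p = 0.782), and Uqcrh, the hinge protein, at 0.04 (adjusted p = 0.849). Other probes gave 0.33 for Uqcr10 and 0.36 and 0.10 for Uqcrh, so these sizes depend on the probe. Cyc1, the cytochrome c1 subunit that the symbol definition leaves out, differed by 0.34 (adjusted p = 0.16).

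Cytochrome c oxidase, complex IV, had 11 general subunits. On their chosen probes all had positive differences, of 0.02 to 0.42, with a median of 0.24. Cox6c, a small nuclear-encoded subunit, read 9.49, 9.52, 9.61 and 9.70 on the oxaliplatin arrays and 9.20, 9.26, 9.26 and 8.91 on the control arrays. The groups did not overlap, and Cox6c rose by 0.42 ± 0.11, 1.34-fold (SE, n = 4 per group, adjusted p = 0.0341). Its second probe differed by 0.53. Cox7c also had no overlap between groups and differed by 0.32 (adjusted p = 0.063).

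Cox4i1, Cox5a and Cox5b were not called on their chosen probes. Cox4i1 read 9.79, 9.90, 9.98 and 10.04 on the oxaliplatin arrays and 9.91, 10.04, 9.96 and 9.72 on the control arrays. Cox5a read 9.41, 9.84, 9.82 and 9.94 on the oxaliplatin arrays and 9.53, 9.71, 9.54 and 9.26 on the control arrays, and Cox5b read 9.27, 9.42, 9.49 and 9.58 on the oxaliplatin arrays and 9.04, 9.39, 9.29 and 9.10 on the control arrays. Their differences were 0.02 (adjusted p = 0.915) for Cox4i1, 0.24 (adjusted p = 0.276) for Cox5a and 0.23 (adjusted p = 0.182) for Cox5b. A second Cox4i1 probe differed by 0.54 and was called higher when used alone, so its 2 probes disagree by over 0.5 on the log2 scale.

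The remaining general forms are small subunits that have a partner gene used elsewhere in the body. Cox6a1 read 10.82, 10.98, 11.10 and 11.17 on the oxaliplatin arrays and 10.72, 10.91, 10.85 and 10.62 on the control arrays. Cox6b1 read 9.24, 9.43, 9.45 and 9.50 on the oxaliplatin arrays and 9.19, 9.32, 9.15 and 8.86 on the control arrays. Cox7a2 read 8.77, 9.07, 9.24 and 9.16 on the oxaliplatin arrays and 8.71, 8.90, 8.89 and 8.55 on the control arrays. The oxaliplatin arrays of these 3 genes lay towards the upper end, with oxaliplatin replicate 1 among the control arrays. They differed by 0.24 (adjusted p = 0.16) for Cox6a1, 0.27 (adjusted p = 0.144) for Cox6b1 and 0.30 (adjusted p = 0.149) for Cox7a2. Cox7b read 8.71, 8.85, 8.90 and 9.05 on the oxaliplatin arrays and 8.94, 8.73, 8.77 and 8.65 on the control arrays. Cox8a read 9.61, 9.80, 9.87 and 9.97 on the oxaliplatin arrays and 9.40, 9.78, 9.64 and 9.37 on the control arrays. Ndufa4 read 8.77, 8.91, 9.03 and 9.12 on the oxaliplatin arrays and 8.78, 8.84, 8.84 and 8.52 on the control arrays. The groups overlapped in each, and the differences were 0.11 (adjusted p = 0.515) for Cox7b, 0.26 (adjusted p = 0.179) for Cox8a and 0.22 (adjusted p = 0.226) for Ndufa4. A second probe gave -0.18 for Cox7b and -0.05 for Cox8a, in each the opposite sign to the first.

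Several complex IV subunits come as forms used in other tissues or conditions. Cox7a1, the form of heart and muscle, read 2.24, 2.88, 3.30 and 3.15 on the oxaliplatin arrays and 2.26, 2.84, 1.98 and 1.03 on the control arrays. Control replicate 4 was the lowest, the groups overlapped, and the difference was 0.87 ± 0.38 (SE, n = 4 per group, adjusted p = 0.143), with 1.29 on a second probe. Used alone, that second probe was called higher, so the call depends on the probe. Cox4i2, a form of lung induced by low oxygen, read 1.88, 1.76, 1.76 and 1.68 on the oxaliplatin arrays and 1.75, 1.30, 1.36 and 1 on the control arrays. It differed by 0.42 ± 0.15 (SE, n = 4 per group, adjusted p = 0.0913). Cox6b2, the testis form, read 3.52, 3.30, 3.40 and 3.29 on the oxaliplatin arrays and 2.85, 3.47, 2.84 and 2.73 on the control arrays. It differed by 0.40 (adjusted p = 0.122) on its brighter probe and by -1.04 on the other, which was called lower when used alone. No direction is given for it. Of 3 testis markers tested, Tnp1 rose and Prm1 fell. Ndufa4l2, a form induced by low oxygen, read 1.37, 1.32, 1.47 and 1.67 on the oxaliplatin arrays and 2.42, 1.76, 2.08 and 1.46 on the control arrays and differed by -0.47 ± 0.20 (SE, n = 4 per group, adjusted p = 0.129). The muscle forms Cox6a2 and Cox8b and the testis forms Cox7b2 and Cox8c were too dim, and none of 3 striated muscle markers tested was called, with summed levels of 3.09 to 3.28 on the oxaliplatin arrays and 3.14 to 3.25 on the control arrays. Cox7a1 and Cox8b are also used in brown fat. Of 6 fat markers Ucp1, Cidea, Adipoq and Lep were too dim to be tested, 1 of the other 2, Fabp4, fell, and the summed levels were 4.03 to 5.24 on the oxaliplatin arrays and 5.34 to 6.38 on the control arrays. The part of fat in these values was not tested.

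Cox7a2l, which joins complexes III and IV into supercomplexes, went the other way from the general subunits. It read 8.61, 8.70, 8.61 and 8.62 on the oxaliplatin arrays and 8.84, 8.95, 9.21 and 9.24 on the control arrays. The 4 oxaliplatin arrays lay between 8.61 and 8.70, below every control array. Cox7a2l fell by 0.43 ± 0.11, 1.35-fold higher on the control arrays (SE, n = 4 per group, adjusted p = 0.0367). Its second probe gave -0.34 and, used alone, did not keep the call.

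ATP synthase turns in its catalytic head and its membrane ring. Of 17 subunit genes 15 had positive differences on their chosen probes, with a median of 0.23, where 40.6% of all genes were positive. Only 1 of the 17 rose, where 6.99% of all genes did. Atp5b, the catalytic beta subunit of the head, read 9.98, 10.12, 10.21 and 10.29 on the oxaliplatin arrays and 9.86, 9.79, 9.67 and 9.48 on the control arrays. The lowest oxaliplatin array, at 9.98, lay above the highest control array, at 9.86. Atp5b rose by 0.45 ± 0.12, 1.37-fold (SE, n = 4 per group, adjusted p = 0.0342). That probe lies at the 3′ end of the transcript. The other 3 probes of the gene differed by 0.28, 0.13 and 0.07, and the brightest of them, used alone, did not keep the call. Their sequences, shown because the call rests on which stretch of Atp5b is read, are as follows, with mm9 positions where the files give them.
Atp5b probe, difference 0.28: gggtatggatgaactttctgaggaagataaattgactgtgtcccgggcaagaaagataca
Atp5b probe, difference 0.13, chr10:127521478-127522156, plus strand, spliced: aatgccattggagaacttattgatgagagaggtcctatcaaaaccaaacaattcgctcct
Atp5b probe, difference 0.07, chr10:127522569-127522628, plus strand: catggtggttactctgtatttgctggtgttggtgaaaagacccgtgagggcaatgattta

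On their chosen probes the other head subunits had smaller values. Atp5a1, the alpha subunit, read 9.25, 9.40, 9.49 and 9.59 on the oxaliplatin arrays and 9.29, 9.45, 9.44 and 9.09 on the control arrays. Atp5c1, the rotating gamma subunit, read 9.39, 9.59, 9.69 and 9.82 on the oxaliplatin arrays and 9.38, 9.66, 9.59 and 9.35 on the control arrays. They differed by 0.12 (adjusted p = 0.508) and 0.13 (adjusted p = 0.497). Other probes gave 0.09 and 0.55 for Atp5a1 and 0.60 for Atp5c1. Used alone, that Atp5c1 probe was called higher, so the order of the head subunits depends on the probe. The small head and stalk subunits Atp5d and Atp5e differed by 0.03 (adjusted p = 0.907) and 0.23 (adjusted p = 0.295). The peripheral stalk holds the head still. Its genes Atp5pb, Atp5h and Atp5j differed by 0.01 (adjusted p = 0.97), -0.10 (adjusted p = 0.518) and 0.25 (adjusted p = 0.126), and in Atp5j the oxaliplatin arrays, at 9.12 to 9.24, all lay above the control arrays, at 8.73 to 9.10. Other Atp5h probes gave 0.25 and 0.35, so its negative sign rests on the brightest probe alone. The 5 membrane accessory genes Atp5k, Atp5j2, Atp5l, Atp5md and Atp5mpl lay between 0.17 and 0.36, and none passed. In Atp5l the oxaliplatin arrays, at 9.52 to 9.84, all lay above the control arrays, at 9.28 to 9.48, but its second probe differed by -0.21. In the peripheral stalk, Atp5o lacks control replicate 1, left out as an outlier spot, so that its difference of 0.26 rests on 3 control arrays (adjusted p = 0.209).

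Of the 3 genes for the c subunit, which make the same ring protein, Atp5g3 had the highest difference and Atp5g2 the lowest. Atp5g3 read 9.59, 9.74, 9.77 and 9.73 on the oxaliplatin arrays and 9.36, 9.62, 9.39 and 9.15 on the control arrays. Atp5g2 read 8.85, 8.97, 9.01 and 9.03 on the oxaliplatin arrays and 9.29, 9.09, 9.39 and 9.16 on the control arrays. The oxaliplatin arrays of Atp5g2 all lay below the control arrays, while those of Atp5g3 overlapped them. They differed by -0.27 ± 0.10 (SE, n = 4 per group, adjusted p = 0.0932) for Atp5g2 and 0.33 ± 0.12 (SE, n = 4 per group, adjusted p = 0.0806) for Atp5g3, and neither passed. Atp5g1 read 7.49, 7.58, 7.75 and 7.79 on the oxaliplatin arrays and 7.41, 7.78, 7.59 and 7.12 on the control arrays, with overlap, and differed by 0.17 (adjusted p = 0.441). Dmac2l, called factor B, is a loosely bound coupling factor of the membrane part, and read 3.43, 3.45, 3.38 and 3.20 on the oxaliplatin arrays and 3.99, 3.79, 4.21 and 4.13 on the control arrays. The groups did not overlap, and Dmac2l fell by 0.67 ± 0.12, 1.59-fold higher on the control arrays (SE, n = 4 per group, adjusted p = 0.0109). Its 2 other probes gave -0.73 and -0.46.

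Considered as a class, the 76 general subunits of the 5 complexes had a median difference of 0.18. Their medians on the 4 oxaliplatin arrays were -0.10, 0.06, 0.16 and 0.22, relative to each gene's mean, and those on the control arrays were -0.13, 0.06, 0.03 and -0.28. Oxaliplatin replicate 1 and control replicate 4 were the lowest of their groups, and the groups overlapped. The complex I assembly factors were set against the subunits on the same array, where any constant shift of the array cancels. Their median minus that of the subunits was -0.20, -0.16, -0.08 and -0.14 on the oxaliplatin arrays and 0.17, 0.10, 0.23 and 0.08 on the control arrays. These 2 sets of values do not overlap. The classes also differ in brightness, since no assembly factor and 54 of the 76 subunits lie in the top bin. When each gene was replaced by the median of all genes in its brightness bin, the same subtraction gave -0.11, -0.10, -0.08 and -0.13 on the oxaliplatin arrays and 0.06, 0.04, 0.08 and 0.20 on the control arrays. All genes of that brightness thus show a separation of the same direction, and nothing particular to assembly factors is read from it. At their bins the median difference of all genes was -0.15 for the assembly factors and 0.04 for the subunits, beside -0.20 and 0.18 for the classes themselves.

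**Figure D3:**
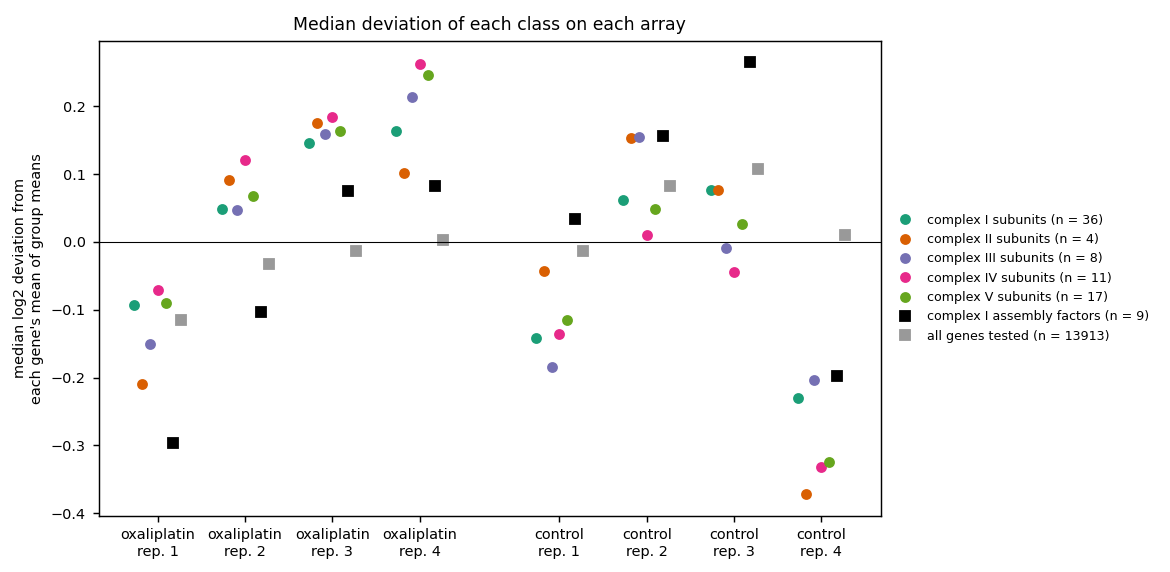
Median log2 deviation of each class of genes on each array, relative to the mean of the group means of each gene, with oxaliplatin arrays left of control arrays. Subunits of all 5 complexes (circles) move together from array to array, while the assembly factors (black squares) lie below the subunits on every oxaliplatin array and above them on every control array.

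The fits also depend on the arrays and on the scaling. Without oxaliplatin replicates 1 and 2, which carry the other run name, none of the 91 genes passed, where 3.70% of all genes did. When the run name was a covariate 2 passed, Dmac2l and Ndufaf3, both lower, where 6.61% of all genes did. The median difference was 0.28 in both. Of 22 alternatives, Dmac2l was called in 20, Ndufaf3 in 19, Ndufaf7 in 18, Cox6c in 12, Cox7a2l in 10, Atp5b in 8 and Ndufaf4 in 7, always in the same direction where called. Over these alternatives the adjusted p ran from 0.000639 to 0.0604 for Dmac2l and from 0.000659 to 0.0750 for Ndufaf3. With 1 array left out at a time, Dmac2l and Ndufaf3 kept the call in all 8 fits, and Ndufaf7 lost it without oxaliplatin replicate 3. Atp5b kept the call without oxaliplatin replicate 1 or control replicate 1 or 2, and lost it without any other array. Cox6c kept it only without control replicate 2 or 4, Cox7a2l only without control replicate 1 or 2, and Ndufaf4 only without control replicate 1. Centring each array on the median of all probes turned Atp5b to -0.18 and Cox6c to -0.20. The 3 assembly factors, Dmac2l and Cox7a2l had negative differences under all 22.

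**Figure D4:**
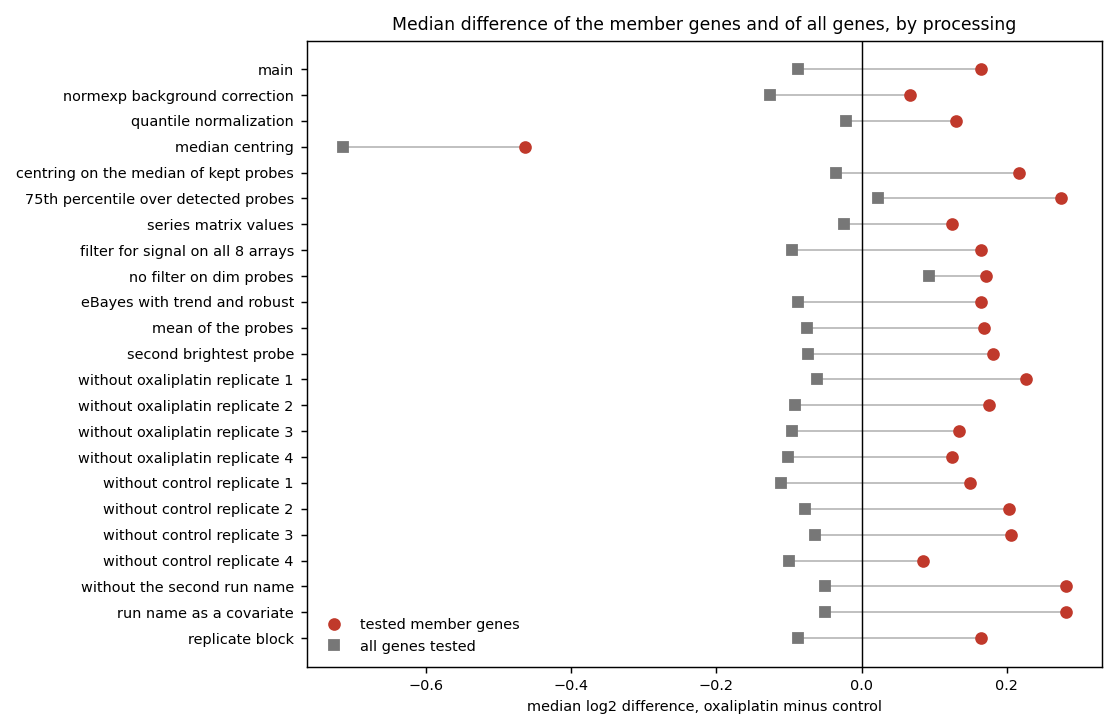
Median log2 difference (oxaliplatin minus control) of the tested respiratory genes (red circles) and of all genes tested (grey squares) under each processing, including each array left out in turn. The respiratory median lies above that of all genes in each row, by 0.08 to 0.33, but is below 0 after centring on the median of all probes.

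Genes that build or feed the complexes without being subunits were read alongside. Of 8 other complex I assembly genes none passed, nor did any of 4 for complex II or 5 for complex III. Of 22 complex IV assembly genes, 4 fell, none rose and 18 did not pass. Over all genes 11.6% fell and 6.99% rose, and nothing particular to this list is read from a count this small. Coa6, a copper-handling protein, fell by 0.83, Cox16 by 0.49, Coa7 by 0.51 and Cmc1 by 0.58 (adjusted p = 0.0139, 0.0107, 0.0146 and 0.0372). In all 4 the groups did not overlap. That held for 5 of the 22, where the share over all genes was 27.7%. Atpaf1, a chaperone for the beta subunit encoded by Atp5b, read 4.85, 4.85, 4.75 and 4.92 on the oxaliplatin arrays and 5.32, 5.49, 5.47 and 5.51 on the control arrays. The signal fell by 0.61 on the oxaliplatin arrays, with an SE of 0.09 (n = 4 per group, adjusted p = 0.00607), and was the only 1 of 5 ATP synthase assembly genes to pass. Of 15 genes for cytochrome c and coenzyme Q, 1 rose, 2 fell and 12 did not pass, where 6.99% of all genes rose and 11.6% fell. Coq10b rose by 0.41, while Coq8b, a kinase-like protein of coenzyme Q synthesis, fell by 0.90 and Coq7, a hydroxylase of that pathway, by 0.66 (adjusted p = 0.0486, 0.0262 and 0.0322).

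**Figure D5:**
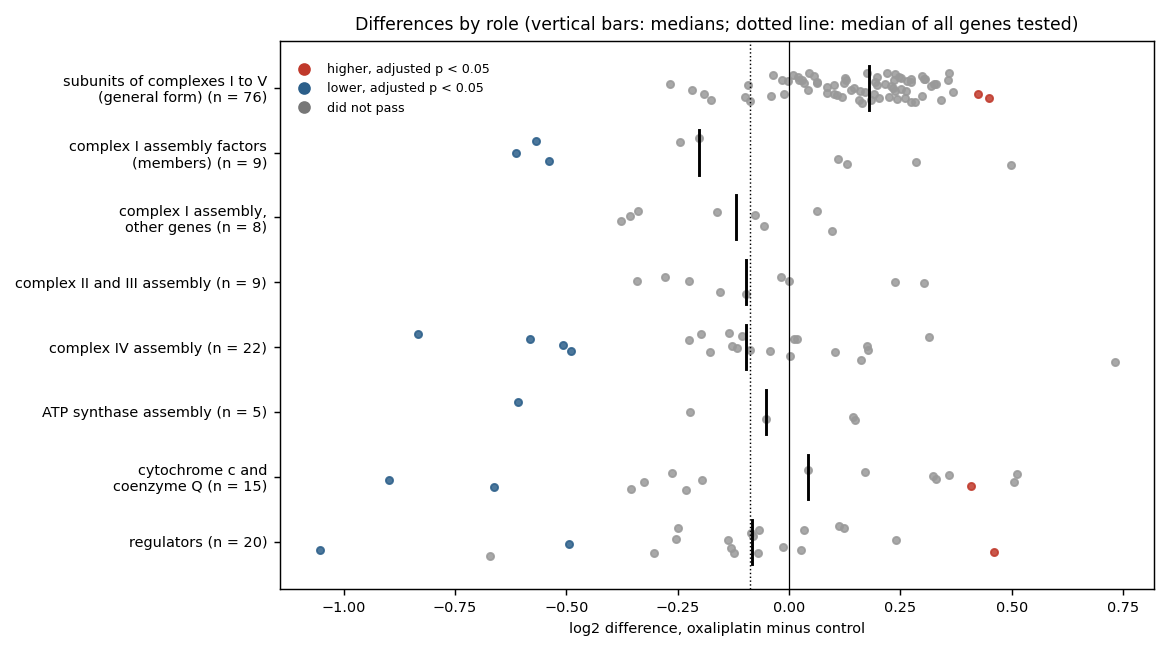
Log2 difference (oxaliplatin minus control) of genes by role, with red for genes that rose, blue for genes that fell and grey for the rest, black bars for medians and a dotted line for the median of all genes. The 76 subunits centre on 0.18 and the 9 complex I assembly factors on -0.20, with the 22 complex IV assembly genes at -0.10. All genes in the same brightness bins had medians of 0.04 for the subunits and of -0.15 for either set of assembly genes.

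Of 20 regulators of respiratory gene expression, 1 rose, 2 fell and 17 did not pass, shares near the 6.99% and 11.6% of all genes. Ppargc1a, a coactivator that induces respiratory genes, read 2.68, 2.56, 2.71 and 2.45 on the oxaliplatin arrays and 4.22, 3.80, 3.31 and 3.29 on the control arrays. It fell by 1.05 ± 0.21, 2.08-fold higher on the control arrays (SE, n = 4 per group, adjusted p = 0.0151). Tfb1m, which modifies mitochondrial ribosomal RNA, fell by 0.49 and Mterf4, of the mitochondrial ribosome, rose by 0.46 (adjusted p = 0.0219 and 0.0397). Tfam, the packaging factor of mitochondrial DNA, differed by -0.07 (adjusted p = 0.786). The subunits encoded in the mitochondrion had no probe matched by name, so this side of the complexes was not analysed here.

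The promoters of these genes are known for sites of a few factors. RefSeq promoters of GRCm38.p6, 250 bases before to 50 after the start, were matched for 78 of the 95 genes, and 4 motifs were searched on both strands. The consensus site of NRF1, a factor that induces respiratory genes, was found in 24.4% of them, in 10.3% of tested genes and in 5.19% of all promoters. The ETS core CCGGAAG was found in 24.4%, 18.1% and 9.93%, and the YY1 core AAGATGGC in 15.4%, 4.78% and 3.19%. The ERR site TCAAGGTCA was found in 2.56%, 0.369% and 0.466%. A match is a description of the letters, not a site in use. Genes with an NRF1 site had a median difference of 0.13 and those without of 0.18. Genes with the ETS core had 0.23 and those without 0.16. Among the genes called, only Ndufaf4 held 1 of these motifs, an NRF1 site, while Cox6c had no promoter matched. The promoters of Ndufaf4, of Sdhd and of Cox6a1, with a pair of NRF1 sites and an ETS core, are shown with the motifs in capitals, 5′ to 3′ on the gene's strand.
Ndufaf4, chr4:24897833-24898132, plus strand: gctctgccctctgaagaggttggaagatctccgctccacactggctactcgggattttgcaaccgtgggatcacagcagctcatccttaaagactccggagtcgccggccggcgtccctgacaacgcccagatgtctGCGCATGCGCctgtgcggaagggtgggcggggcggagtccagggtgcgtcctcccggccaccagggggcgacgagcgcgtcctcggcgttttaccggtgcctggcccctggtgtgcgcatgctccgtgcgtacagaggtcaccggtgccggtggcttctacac
Sdhd, chr9:50603800-50604099, minus strand, with an NRF1 site, an ETS core and an ERR site: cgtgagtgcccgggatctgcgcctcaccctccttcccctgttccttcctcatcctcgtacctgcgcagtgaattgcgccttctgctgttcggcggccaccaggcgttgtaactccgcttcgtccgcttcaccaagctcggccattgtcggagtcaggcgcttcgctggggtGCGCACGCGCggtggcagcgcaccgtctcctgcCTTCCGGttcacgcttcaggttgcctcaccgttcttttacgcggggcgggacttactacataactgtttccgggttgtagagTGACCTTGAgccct
Cox6a1, chr5:115348909-115349208, minus strand: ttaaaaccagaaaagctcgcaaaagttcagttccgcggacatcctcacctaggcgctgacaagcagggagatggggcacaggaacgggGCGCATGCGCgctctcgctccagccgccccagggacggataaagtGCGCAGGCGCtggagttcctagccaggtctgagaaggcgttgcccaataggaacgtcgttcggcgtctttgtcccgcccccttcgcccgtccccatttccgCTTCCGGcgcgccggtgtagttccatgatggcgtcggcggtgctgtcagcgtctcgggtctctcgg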

How the data were processed

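The values were scanner output of 8 Agilent single-colour arrays. Feature Extraction was version 12.0.3.1 per the file headers and version 10.7 per the submitters' processing notes, which also name limma. The processed signal is a linear intensity, background-subtracted within the array per the file headers. Its mean spot signal and median local background are likewise deposited as intensity, and the deposited flags mark spots as well above background, saturated or outliers. The deposited series matrix holds log2 values whose normalization is not stated. Probe names and positions are those of the deposited files, on build mm9, with symbols from RefSeq (GRCm38.p6) for 47985 of 48257 curated accessions.

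From these values log2 intensity minus each array's 75th percentile over 149782 non-control probes was taken, and outlier spots were left out. Probes well above background on at least 4 of 8 arrays were kept, the brightest probe stood for each gene, and 13913 genes were tested with limma (lmFit and eBayes, version 3.58.1, R 4.3.3). Adjustment was by Benjamini-Hochberg over all genes, at a threshold of 0.05. The fit was tested on simulated data. Alternatives covered background correction, scaling, filters, the variance model, the probe, each array left out, the run name and a replicate block. The numbers shared by the labels were not taken to pair the samples. Same-numbered arrays correlated between -0.32 and -0.08 in their deviations across genes, which gives no sign of pairing but cannot exclude it. A slide term could not be fitted.

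The genes, lists and markers were chosen with earlier results of these data known. Genes named with every array are core subunits, isoform pairs and members that passed, and of the other lists those that passed, at most 6 by smallest adjusted p. A gene that the rule picks is not reported here, though the counts over all genes of the set include it. Tfam and Cyc1 were named in addition, and so were the ends of ranges and genes without overlap, after their values were seen. Reading and plotting used matplotlib 3.10.9, pandas 2.3.3, numpy 2.4.6 and Python 3.11.15. The design calls the replicates biological, and the p-values weigh each group difference against the spread between replicates. Replicates of a group shared a slide, so that spread holds no variation between slides.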

Additional observations from a re-analysis of the deposited data

Results flagged for a closer look

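In 3 of 78 sets of 4 arrays, a single array stood far from the other 3, measured as its gap to the nearest over the range of the set. Chance alone flags about 5% of sets. Sdhc had 8.06 on oxaliplatin replicate 1, below 8.35 to 8.37 on the other oxaliplatin arrays. Cox7a2l had 8.70 on oxaliplatin replicate 2, above 8.61 to 8.62 on the other oxaliplatin arrays and below all control arrays. Cox6b2 had 3.47 on control replicate 2, above 2.73 to 2.85 on the other control arrays, and its 2 probes disagree in sign.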

How the results depend on the processing

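The 2 genes that rose and 5 that fell became 1 and 6 after normexp, 4 and 5 after quantile normalization and in the series matrix, 5 and 5 when centred on the median of kept probes (an alternative chosen after seeing the data), 20 and 3 with the 75th percentile over detected probes, and 0 and 49 after centring on the median of all probes, where the median difference was -0.46 and that of all genes -0.71 (9917 genes called). The trended, robust variance model gave 4 and 5, the mean of the probes 5 and 4, and the second brightest probe 11 and 3. The 3 that fell with that probe were Cox6b2, Dmac2l and Ndufaf7. The 11 that rose were Atp5c1, Atp5g3, Atp5j, Cox4i1, Cox6b1, Cox6c, Cox7a1, Cox7c, Ndufc1, Ndufs3 and Uqcrq. The genes that rose were then 12.1% of these genes and 7.46% of all genes, and over detected probes 22.0% and 10.3%, the other way round from the 2.2% and 6.99% of the main processing. Leaving out 1 array gave 0 to 4 that rose and 2 to 5 that fell, with a median of 0.08 to 0.23 and 1015 to 2335 genes called over the array, 2590 in the fit with all arrays. Without oxaliplatin replicates 1 and 2 there were 0 and 0 (515 genes called), and 0 and 2 when the run name was a covariate (920 called). With replicate number as a block, no respiratory gene passed in either direction, 0 and 0, and 529 genes were called. The numbers were not taken to pair the samples. Without the filter on dim probes 4114 genes were called, and the share of called genes that rose was 67.6%, against 37.6% in the main processing. That share was 20.8% after normexp, 50% after quantile normalization, 2.32% after median centring, 47.7% when centred on kept probes, 60.5% over detected probes and 49.3% in the series matrix. The all-gene median was 0.09 without the filter and 0.02 over detected probes. Atp5b was -0.18 and Cox6c -0.20 after median centring. The cause of these shifts was not tested. Unadjusted, 22 of the 91 genes had p under 0.05. Slide could not be fitted. The number of arrays and the signal of the 4 dim isoforms limit what can be seen.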
